A study of Mus musculus with 10 samples.

Results

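The Frizzled receptors are the 10 mouse genes Fzd1 to Fzd10, taken by symbol from gene-level RNA-seq counts. All 10 were found among the 56748 gene identifiers listed, and all 10 passed the filter on low counts that left 18163 genes for testing. The counts come from embryonic mouse cortex at E12.5. There were 5 libraries labelled Emx2 KO, in which the homeobox gene Emx2 is the stated target, and 5 labelled WT. Strain, allele, litter and the number of embryos per library are not given in the sources used here. Hence p-values refer to variation among libraries, some of which may be technical.

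Frizzled proteins are seven-pass membrane receptors for WNT ligands, which they bind through an extracellular cysteine-rich domain. With the co-receptors LRP5 and LRP6 they pass the signal to Dishevelled and stabilise beta-catenin, and some members also act in planar cell polarity without beta-catenin. In the dorsal telencephalon the cortical hem, at the medial margin of the cortex, secretes WNTs and is needed for the hippocampus to form. By sequence the family falls into the groups Fzd1, Fzd2 and Fzd7, then Fzd5 and Fzd8, then Fzd4, Fzd9 and Fzd10, then Fzd3 and Fzd6.

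Library totals ran from 9720840 to 35674113 counts and fell into 5 large libraries (knockout replicates 1, 2 and 4, wild-type replicates 3 and 4) and 5 small ones. Sample titles end in 1 of 3 codes of unstated meaning (241022, 14922 and 31022), and both genotypes occur under each. Under any 1 code, though, knockout and wild type differ in size class, and within either size class they share no code. Emx2 reads, scaled to library size as CPM, stood at 94.6 to 146 CPM in the knockout and 175 to 207 CPM in the wild-type libraries. They were lower but present (log2 fold change -0.59 ± 0.11, SE, edgeR adjusted p = 0.00271), and whole-gene counts do not show which part of Emx2 was targeted. The summed level of 8 cortex markers, all detected, was 2538 to 2996 CPM in knockout and 2126 to 2435 CPM in wild type. The markers of other cell types were also present, so a difference in bulk RNA cannot tell fewer cells of a type from less RNA per cell.

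Of the 10 Frizzled genes 3 rose in the knockout (Fzd2, Fzd5 and Fzd8), 5 fell (Fzd1, Fzd3, Fzd7, Fzd9 and Fzd10) and 2 (Fzd4 and Fzd6) did not pass the threshold (edgeR quasi-likelihood test, adjusted p under 0.05). Across all genes tested 22.2% passed, 12.9% as higher and 9.33% as lower. The median log2 fold change of the 10 was -0.35, against -0.006 over all genes tested. For 2 members every knockout library lay above every wild-type library, and for 5 every knockout library lay below. Over all genes tested 9.63% stood apart upward and 7.06% downward. CPM here is scaled by trimmed mean of M values (TMM), and values below are listed for replicates 1 to 5 of each genotype.

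**Figure D1:**
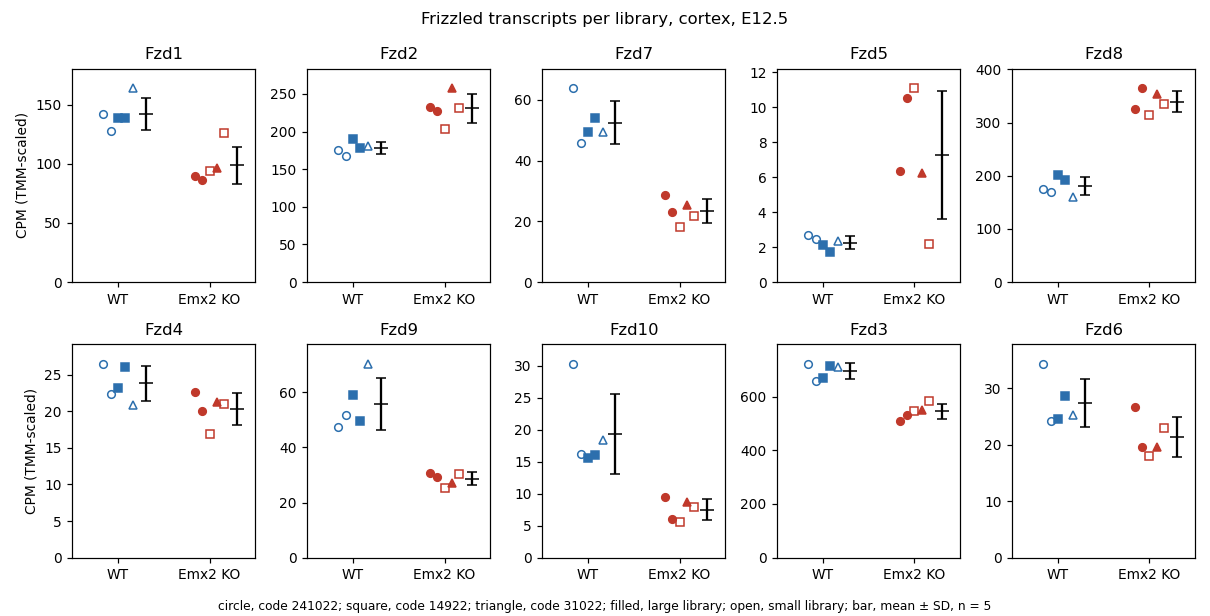
Level of each Frizzled transcript in every library (vertical axis, CPM from 0), wild type in blue and Emx2 knockout in red, with mean ± SD (n = 5) at the side of each group. Symbols mark the title code and filling the library size class. The groups do not overlap for Fzd1, Fzd2, Fzd3, Fzd7, Fzd8, Fzd9 and Fzd10, and for Fzd5 knockout replicate 5 sits at 2.15 CPM among the wild-type libraries.

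Fzd8, a receptor of the forebrain and closest in sequence to Fzd5, had the smallest p of the family. It stood at 326, 365, 314, 353 and 335 CPM in the knockout libraries and at 175, 170, 202, 191 and 159 CPM in wild type. All knockout libraries lay far above the highest wild-type one. The mean was 339 ± 20.1 against 180 ± 17.2 CPM (SD, n = 5 each), a rise of 1.88-fold (log2 fold change 0.91 ± 0.06, edgeR adjusted p = 3.27e-06). Its spread within a genotype was small, with a coefficient of variation of 5.95% in knockout and 9.58% in wild type.

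Fzd5, which is known for its role in eye development, was the least abundant member and had the largest fold change. Its reads numbered 31 to 282 per knockout library and 23 to 76 per wild-type library, so each value carries counting error. Levels were 6.33, 10.5, 11.1, 6.26 and 2.15 CPM in knockout against 2.67, 2.47, 2.10, 1.69 and 2.34 CPM in wild type. Knockout replicates 1 to 4 lay above every wild-type library and replicate 5 lay within their range. The log2 fold change was 1.72 ± 0.37 (edgeR adjusted p = 0.00650), and 1.94 (adjusted p = 1.37e-04) without knockout replicate 5. The coefficient of variation in knockout, 50.3%, was the highest in the family. A transcript annotated on the opposite strand, Gm38058, shares 1233 exonic bases with Fzd5 in the GRCm38 annotation. It held 7 reads in all libraries together. The strand setting of the counting is not given, so this number does not show whether Fzd5 reads from the shared part went uncounted.

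Fzd2, of the group with Fzd1 and Fzd7, rose by a smaller amount. The knockout libraries held 233, 227, 204, 258 and 232 CPM and the wild-type libraries 176, 167, 190, 178 and 181 CPM. The groups stood apart, with 204 CPM the lowest knockout and 190 CPM the highest wild-type value. The log2 fold change was 0.37 ± 0.06 (231 ± 19.2 against 178 ± 8.26 CPM, edgeR adjusted p = 6.27e-04).

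Both relatives of Fzd2 moved the other way. Fzd7, a receptor widely used in stem and progenitor cells, was at 28.7, 22.9, 18.1, 25.3 and 21.9 CPM in knockout and at 63.9, 45.8, 49.4, 53.9 and 49.5 CPM in wild type. Every knockout library lay below the lowest wild-type library, and the means were 23.4 ± 3.92 and 52.5 ± 6.99 CPM (log2 fold change -1.16 ± 0.12, edgeR adjusted p = 6.25e-05). Fzd1 fell less, from 142 ± 13.2 to 98.5 ± 16.0 CPM (-0.53 ± 0.10, edgeR adjusted p = 0.00345). Its knockout libraries held 89.8, 86.0, 94.1, 96.4 and 126 CPM against 142, 128, 139, 139 and 164 CPM in wild type. Knockout replicate 5 alone came close to the wild-type range. The log2 ratio of Fzd2 to Fzd1 reads within a library needs no scaling between libraries. It was 1.24 ± 0.24 (SD) in knockout and 0.33 ± 0.11 in wild type, and that of Fzd2 to Fzd7 was 3.02 to 3.49 against 1.47 to 1.94. Every knockout library was above every wild-type one for Fzd2 and below for Fzd1 and Fzd7, so these ratios are no separate support. The 3 transcripts share no stretch of 50 bases with each other or with any other member (GENCODE M21), so reads of that length or longer that match exactly can be told apart.

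RefSeq start sites (GRCm38.p6) were listed for 6 members (Fzd1, Fzd4, Fzd5, Fzd7, Fzd9 and Fzd10). The 250 bases upstream of Fzd1 (chr5:4758217-4758466, minus strand) and Fzd7 (chr1:59481897-59482146, plus strand) are printed 5′ to 3′ along the gene. Both genes fell and no exon is annotated inside either window. Fzd9 and Fzd10 fell too, and their windows are not printed. Capitals mark 2 core motifs on either strand, the homeodomain core TAAT, a class of site that Emx2 as a homeodomain protein belongs with, and the TCF/LEF core CTTTGA, through which beta-catenin acts.
Fzd1: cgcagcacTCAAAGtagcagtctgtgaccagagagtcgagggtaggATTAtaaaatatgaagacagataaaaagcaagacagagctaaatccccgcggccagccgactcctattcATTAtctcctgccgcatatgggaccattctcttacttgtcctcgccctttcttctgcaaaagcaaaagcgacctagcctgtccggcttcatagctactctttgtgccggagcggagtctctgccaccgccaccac
Fzd7: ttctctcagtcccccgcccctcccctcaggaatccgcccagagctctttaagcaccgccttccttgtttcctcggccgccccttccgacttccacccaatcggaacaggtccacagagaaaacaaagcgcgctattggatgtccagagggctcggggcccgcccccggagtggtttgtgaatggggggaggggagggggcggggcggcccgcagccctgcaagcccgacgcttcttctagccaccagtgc
The Fzd1 window holds 2 TAAT and 1 CTTTGA match and the Fzd7 window holds neither. Among 32851 upstream windows of this length 54.9% hold TAAT and 13.8% CTTTGA. The Fzd5 window has 2 TAAT matches, and those of Fzd4, Fzd9 and Fzd10 have neither core. These matches describe letters and say nothing about binding. The windows differ in base composition, with 51.2% G and C and 12 CpG dinucleotides for Fzd1, 65.2% and 17 for Fzd7, and 76.4% and 42 for Fzd9.

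In the group of Fzd4, Fzd9 and Fzd10, the latter pair fell. Fzd9, long used as a marker of the hippocampal primordium, stood at 30.9, 29.1, 25.4, 27.1 and 30.5 CPM in knockout and 47.3, 51.8, 59.2, 49.6 and 70.4 CPM in wild type. The groups were well apart, and the knockout libraries were tightly grouped (coefficient of variation 8.11% against 16.8%). The means were 28.6 ± 2.32 and 55.7 ± 9.36 CPM (log2 fold change -0.96 ± 0.10, edgeR adjusted p = 6.98e-05). Fzd10, a receptor of the dorsal neural tube and forebrain midline, stood at 9.45, 5.99, 5.57, 8.67 and 7.89 CPM against 30.3, 16.2, 15.6, 16.0 and 18.3 CPM. Wild-type replicate 1 was far above the other wild-type libraries. The log2 fold change was the most negative of the family, -1.34 ± 0.21 (edgeR adjusted p = 0.00117), and -1.12 (adjusted p = 4.66e-04) without wild-type replicate 1. Fzd4, the receptor for Norrin in blood vessels, ran from 16.9 to 22.6 CPM in knockout and from 20.9 to 26.5 CPM in wild type. The groups overlapped and its log2 fold change of -0.23 (95% interval -0.42 to -0.03, before adjustment) did not pass (edgeR adjusted p = 0.0926).

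Fzd3 and Fzd6 are best known for planar cell polarity, and Fzd3 for guiding long axon tracts. Fzd3 was at 510, 531, 546, 552 and 585 CPM in knockout and 723, 659, 669, 713 and 712 CPM in wild type. The groups stood apart although the change was small, -0.35 ± 0.05 on the log2 scale (545 ± 27.6 against 695 ± 29.1 CPM, edgeR adjusted p = 2.25e-04). Fzd6 had the same log2 fold change, -0.35 (95% interval -0.62 to -0.08, before adjustment), but a wider spread. It ran from 18.0 to 26.8 CPM in knockout and from 24.3 to 34.4 CPM in wild type, and the ranges overlapped because of knockout replicate 1. It did not pass (edgeR adjusted p = 0.0623), but did without that library (-0.45, adjusted p = 0.0134). It passed as well with DESeq2 (adjusted p = 0.0385), with upper-quartile scaling (0.0499) and with total counts alone (0.0392). Fzd4 passed with total counts alone (0.0478).

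Levels of different genes were compared per kilobase of annotated exon. In wild type Fzd3 (54.3 ± 2.27 CPM per kb) and Fzd2 (48.7 ± 2.25) led with overlapping ranges. Fzd1 (33.9 ± 3.15) came next and overlapped with Fzd8 (30.1 ± 2.88), which in turn overlapped with Fzd9 (24.3 ± 4.08). Fzd7 (11.6 ± 1.54) stood apart from its neighbours, Fzd10 (5.94 ± 1.92) and Fzd6 (5.70 ± 0.885) overlapped, and Fzd4 (3.54 ± 0.360) and Fzd5 (0.326 ± 0.0541) closed the order. In the knockout the leading pair was Fzd2 (62.9 ± 5.23) and Fzd8 (56.7 ± 3.37), again with overlapping ranges, ahead of Fzd3 (42.6 ± 2.15) and Fzd1 (23.5 ± 3.82). Fzd10 (2.31 ± 0.519) lay below Fzd4 (3.02 ± 0.319), although their ranges overlapped, and Fzd5 (1.05 ± 0.529) remained last.

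Summed over the 10 members, the level per length was 198 to 224 CPM per kb in knockout and 202 to 227 in wild type (214 ± 10.6 against 218 ± 9.49), so the ranges of the totals overlapped almost completely while the makeup differed. As a share of this sum Fzd8 was 25.1% to 28.6% in the knockout libraries and 11.7% to 15.3% in wild type. Fzd2 took 28.1% to 31.4% against 21.6% to 23.4%. Fzd3 took 19.9% ± 1.09 against 24.9% ± 0.815 and Fzd1 10.9% ± 1.53 against 15.5% ± 0.964. The shares of Fzd9 (5.83% ± 0.405 against 11.1% ± 1.67) and Fzd7 (2.41% ± 0.371 against 5.30% ± 0.615) were lower in every knockout library. Fzd5 remained under 1% throughout, at most 0.813%. These shares depend on one another and on the annotated lengths, and carry no test.

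**Figure D2:**
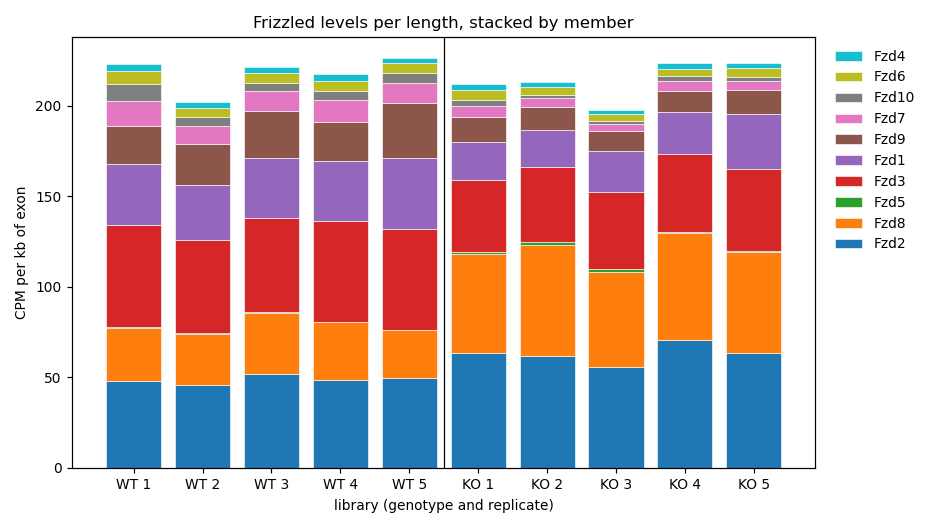
Level per length of the 10 Frizzled members (vertical axis, CPM per kb of exon) stacked for each library, 5 wild-type bars at the left and 5 knockout bars at the right. Bar heights run from 198 to 227 in both genotypes together, and the segments of Fzd2 and Fzd8 are taller in the knockout bars.

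The log2 ratio of Fzd8 to Fzd7 reads within each library showed the contrast without scaling or length. It was 3.51, 3.99, 4.12, 3.80 and 3.93 in knockout and 1.46, 1.90, 2.03, 1.83 and 1.68 in wild type. That of Fzd8 to Fzd9 was 3.40 to 3.70 against 1.17 to 1.94, and that of Fzd8 to Fzd3 was -0.80 to -0.54 against -2.17 to -1.73. None of these ranges overlapped between genotypes. That outcome follows from the choice of pairs. Every knockout library was above every wild-type one for Fzd8 and below for Fzd7, Fzd9 and Fzd3. The ratios are therefore no separate support.

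The direction of every member was the same in the 2 title codes with 2 libraries of each genotype and in both size classes. Fzd8 and Fzd9 passed in all 4 of these smaller fits. Fzd8 changed by 1.0 ± 0.09 (edgeR adjusted p = 0.00597) in code 241022 and 0.72 ± 0.06 (0.00318) in code 14922, and Fzd9 by -0.72 ± 0.10 (0.0246) and -0.97 ± 0.13 (0.0114). Fzd7 changed by -1.08 ± 0.20 (0.0551) in code 241022, where it did not pass, and by -1.37 ± 0.11 (0.00318) in code 14922. Fzd10 likewise passed in 14922 alone, with -1.58 ± 0.38 (0.117) and -1.24 ± 0.18 (0.0138). Fzd1 passed in code 241022 (-0.61 ± 0.09, adjusted p = 0.0239) but not in 14922 (-0.34 ± 0.15, 0.243), as did Fzd2 (0.42 ± 0.07, 0.0403, and 0.24 ± 0.08, 0.104) and Fzd5 (1.71 ± 0.31, 0.0440, and 1.79 ± 0.88, 0.326). Fzd3 passed in 14922 (-0.29 ± 0.06, 0.0349) and not in 241022 (-0.41 ± 0.09, 0.0658). These edgeR fits rest on 2 libraries against 2, so few genes pass. In code 241022, 2 members fell and 3 rose, beside 1.54% and 1.31% of all genes tested (2.85% in either direction). In code 14922, 4 fell and 1 rose, beside 3.68% and 5.28% (8.96% in either direction).

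The difference of the genotype effect between the 2 codes was tested as an interaction, and 0 of the 10 members passed (edgeR; 1 of 10 had an unadjusted p under 0.05). That member was Fzd8, with a difference of 0.29 ± 0.10 (code 241022 minus code 14922, adjusted p = 0.529). Over all genes 1.53% passed. In code 241022 the knockout libraries are large and the wild-type ones small, and in code 14922 the reverse holds. A difference of the genotype effect between codes therefore cannot be told apart from an effect of size class in this test. In the single pair of code 31022 the log2 ratio of knockout to wild type was 1.15 for Fzd8 and 0.51 for Fzd2, and -0.97, -1.38 and -1.08 for Fzd7, Fzd9 and Fzd10. Only Fzd4, at 0.02, had a sign opposite to that in all libraries.

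By size class, the large libraries gave the same 8 calls as all libraries, whereas the small ones gave Fzd7 (-1.40 ± 0.17), Fzd8 (0.95 ± 0.07) and Fzd9 (-1.01 ± 0.19) alone. Within either class the genotypes share no title code, so genotype and code cannot be told apart in these fits. In the large libraries 16.4% of all genes tested passed (9.51% higher, 6.93% lower), and in the small ones 3.56% (1.90% higher, 1.65% lower). Fzd10 changed by -0.98 ± 0.18 in the large libraries and -1.68 ± 0.33 in the small ones (edgeR adjusted p = 0.00675 and 0.0545). Fzd5 changed by 2.01 ± 0.28 and 1.40 ± 0.67 (0.00190 and 0.308).

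**Figure D3:**
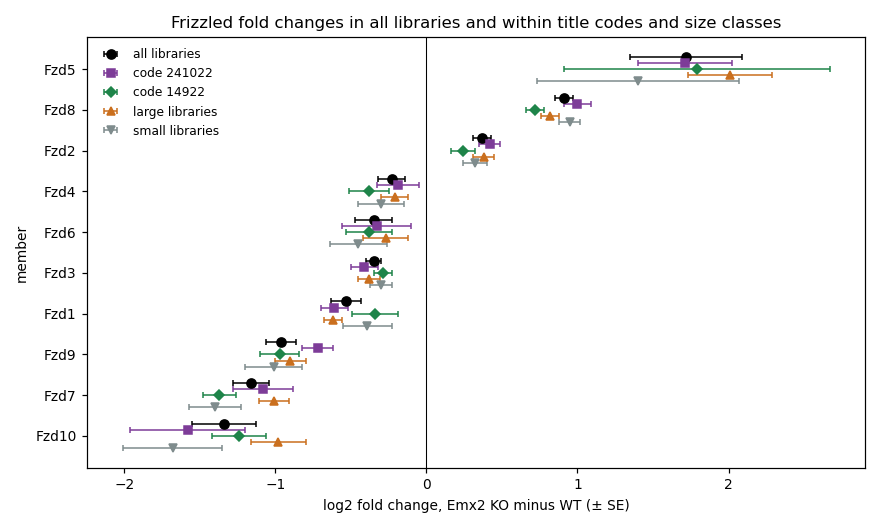
Log2 fold change (knockout minus wild type, horizontal axis, ± SE) of each Frizzled member in all libraries and in each title code and size class alone. All 5 estimates lie on one side of 0 for every member, and the widest bars are those of Fzd5, with an SE of 0.88 in code 14922.

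Marker levels of neighbouring territories differed with genotype, as did some members. The 8 subpallium markers, transcripts of the region ventral to the cortex, summed to 363, 490, 647, 346 and 191 CPM in knockout replicates 1 to 5 and to 97.3 to 280 CPM in wild type, and 6 of the 8 rose (edgeR; 12.9% of all genes tested rose). The order of the knockout libraries by this sum, from replicate 3 through 2, 1 and 4 to 5, was also their order by Fzd5. The wild-type libraries did not follow this order. Wild-type replicate 2 had the highest sum of its group, 280 CPM, yet 2.47 CPM of Fzd5. Wild-type replicate 1 had the lowest sum, 97.3 CPM, and the highest wild-type Fzd5, 2.67 CPM. The 8 cortical hem markers summed to 74.2 to 182 CPM in knockout and 250 to 377 CPM in wild type, and 6 of the 8 fell (9.33% of all genes tested fell). Of these 8 markers 6 are themselves WNT or R-spondin genes. Wild-type replicate 1, highest for Fzd7 and Fzd10, had the highest hem sum (377 CPM), and knockout replicate 1, highest of its group for Fzd7 and Fzd10, had the highest knockout sum (182 CPM). Wild-type replicate 5 had nearly the same hem sum as wild-type replicate 1, 371 CPM, with 18.3 CPM of Fzd10 and 49.5 CPM of Fzd7. Knockout replicate 5 had the next highest knockout hem sum, 109 CPM, but less Fzd7 (21.9 CPM) than knockout replicates 2 and 4.

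Of 8 choroid plexus markers 6 fell, with sums of 57.6 to 93.1 against 254 to 307 CPM. The shares of all genes tested, here and for the lists below, were 9.33% lower and 12.9% higher. Of 8 radial glia markers 6 rose, with sums of 3023 to 3478 against 2690 to 2788 CPM. Of 8 neuron markers 5 rose, with sums of 3747 to 4943 against 2468 to 3795 CPM. Endothelial markers, of the vessels in which Fzd4 is known to act, summed to 171 to 297 CPM in knockout and 209 to 281 CPM in wild type, and 0 of 8 passed. Of 8 meningeal and mesenchymal markers 1 fell (577 to 793 against 555 to 787 CPM), and of 8 microglial markers 0 passed (39.4 to 58.6 against 45.4 to 61.9 CPM). Of 8 radial glia markers 1, Pax6, is also in the cortex list. For retina, where Fzd5 is known to act, 3 of 8 listed genes passed the filter on low counts, 1 of them fell, and the sum of all 8 was 33.0 to 65.5 CPM in knockout and 34.4 to 49.2 CPM in wild type. Tyr, of that list, was under 0.5 CPM in every library, and no gene of the other marker lists was. The part of these cell types in the Frizzled differences was not tested.

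**Figure D4:**
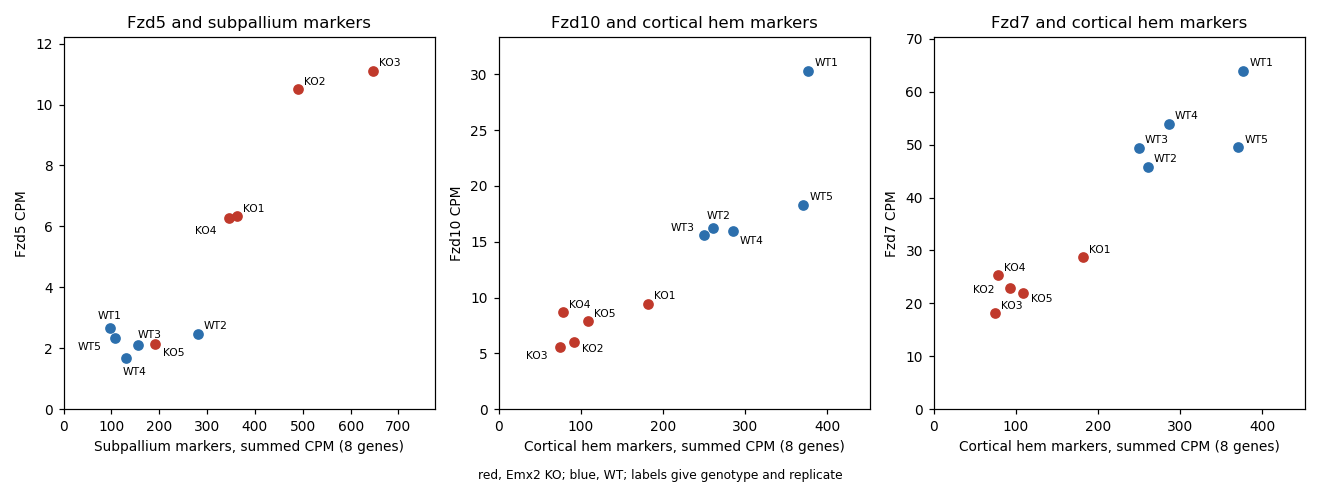
Each point is 1 library, with the summed CPM of 8 marker genes on the horizontal axis and the CPM of 1 Frizzled gene on the vertical axis, knockout in red and wild type in blue. Knockout replicate 5 has the lowest subpallium sum (191) and the lowest Fzd5 level (2.15) of its group, and the genotypes are apart on both axes for the hem markers against Fzd10 and Fzd7.

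The genes that act with the receptors were described by lists, whose members were likewise picked with earlier results of these data known. Among 19 WNT ligands 12 were tested, of which 7 fell and 2 rose, with a median log2 fold change of -1.03. Over all genes tested 9.33% fell and 12.9% rose, shares to be read beside every list count below. Wnt2b, a hem ligand of the beta-catenin branch, fell from 29.7 ± 2.28 to 5.97 ± 0.815 CPM (-2.31 ± 0.10), Wnt5a, a ligand mostly of the polarity branch, from 58.8 ± 8.73 to 19.2 ± 3.29 CPM (-1.62 ± 0.13), and Wnt7b, a ligand made by cortical cells that acts on brain vessels, from 135 to 175 CPM in wild type to 58.2 to 90.8 CPM in knockout (-0.99 ± 0.11). Wnt2b and Wnt5a are also in the hem list. The 2 that rose, named after their values were seen, were Wnt7a (34.4 ± 4.90 to 51.2 ± 2.86 CPM) and the scarce Wnt1 (0.130 ± 0.118 to 0.908 ± 0.250 CPM).

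Of 6 co-receptors tested 2 fell and 0 rose (median -0.01), where 9.33% of all genes tested fell and 12.9% rose: Ror1, a receptor for Wnt5a (10.7 to 13.6 CPM in wild type, 5.12 to 8.84 CPM in knockout, log2 fold change -0.63 ± 0.14), and Lrp6 (182 ± 5.46 to 167 ± 8.17 CPM, -0.13 ± 0.04, edgeR adjusted p = 0.0422). The call of Lrp6 was lost on leaving out any of 8 single libraries, the exceptions being knockout replicate 4 and wild-type replicate 2, and also with no filter on low counts (adjusted p = 0.125) and with size class as a block (0.0503). Of 4 partners in the Norrin and WNT7 receptor complexes 1 rose and 1 fell (median 0.07). Ndp, which encodes Norrin, the ligand of Fzd4, rose from 3.47 ± 0.785 to 6.38 ± 0.847 CPM (0.87 ± 0.16). Tspan12, a tetraspanin that assists Fzd4, fell from 27.5 to 30.6 CPM in wild type to 19.8 to 22.5 CPM in knockout (-0.49 ± 0.06).

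Secreted decoys carry a cysteine-rich domain like that of the receptors and bind WNTs outside the cell. Of 4 tested 1 rose and 1 fell (median 0.07), where 12.9% of all genes tested rose and 9.33% fell. Sfrp1 rose from 836 ± 75.4 to 1045 ± 59.7 CPM (log2 fold change 0.32 ± 0.06) and Frzb fell from 17.6 ± 3.72 to 8.49 ± 1.80 CPM (-1.05 ± 0.17). The turnover of Frizzleds at the membrane is set by the ubiquitin ligases Rnf43 and Znrf3, which R-spondins and Lgr receptors hold back. Of 7 tested genes of this system 4 fell and 0 rose (median -1.16), beside 9.33% and 12.9% of all genes tested. Rspo1 fell from 38.7 to 62.9 CPM in wild type to 13.1 to 27.2 CPM in knockout (-1.52 ± 0.22), and Rspo3 from 52.4 to 88.4 CPM to 13.0 to 41.9 CPM (-1.68 ± 0.34). The ligase gene Rnf43 fell from 5.83 ± 0.248 to 2.51 ± 0.903 CPM (-1.19 ± 0.22). Both R-spondins are also in the hem list.

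Downstream of the receptors, 4 of 6 genes of the Dishevelled and signalosome list rose and 0 fell (median 0.15), all by small amounts. Among all genes tested 12.9% rose and 9.33% fell. Dvl3 rose from 183 ± 8.42 to 229 ± 2.77 CPM (log2 fold change 0.32 ± 0.04), Dvl2 from 69.7 ± 1.31 to 84.9 ± 3.77 CPM (0.29 ± 0.04) and the scaffold gene Axin1 by 0.17 ± 0.04 (edgeR adjusted p = 0.0169). Axin1 was not called with total counts alone (adjusted p = 0.0652), without knockout replicate 4 (0.0552) or without wild-type replicate 4 (0.0544). Of 9 planar polarity partners 2 rose and 0 fell (median -0.08), a share near the 22.2% of all genes tested that passed in either direction. Both are cadherins with 7 membrane passes that work with Fzd3. Celsr3 rose from 147 ± 27.8 to 217 ± 31.2 CPM (0.56 ± 0.14, edgeR adjusted p = 0.0169). It did not pass with no filter on low counts, at the same log2 fold change of 0.56 (adjusted p = 0.0633), or with the level of Y-linked genes as a covariate, at 0.49 (0.0613). Celsr2 rose from 450 ± 34.5 to 508 ± 21.6 CPM (0.17 ± 0.05, edgeR adjusted p = 0.0355). Its call was lost on leaving out any 1 of 8 libraries (all but knockout replicate 1 and wild-type replicate 5), under upper-quartile scaling (adjusted p = 0.0749) and total counts (0.0993), and with the Y-linked covariate (0.0685). Of 9 feedback targets of beta-catenin 7 fell and 0 rose (median -0.52). Among them Apcdd1, a WNT inhibitor, fell from 176 ± 22.9 to 79.5 ± 21.7 CPM (-1.14 ± 0.18), Axin2 from 129 ± 15.3 to 89.6 ± 11.3 CPM (-0.52 ± 0.10) and Tnfrsf19 from 326 ± 33.1 to 227 ± 26.1 CPM (-0.52 ± 0.09).

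**Figure D5:**
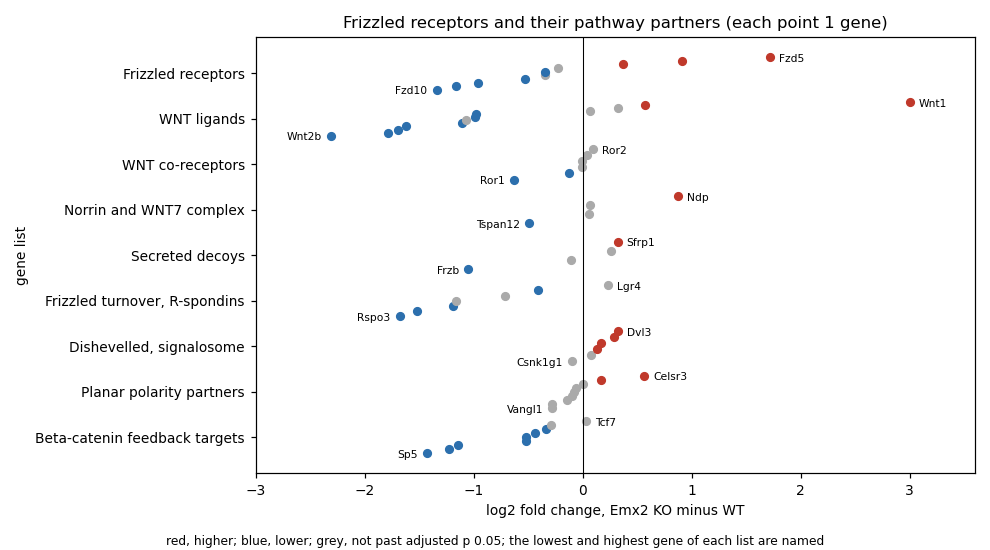
Log2 fold change (knockout minus wild type, horizontal axis) of each tested gene in the Frizzled family and in 8 lists of partners (rows), coloured by direction where it passed edgeR's adjusted p under 0.05. The Frizzled row reaches from -1.34 (Fzd10) to 1.72 (Fzd5), and the R-spondin and feedback target rows hold no gene that rose.

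Profiles over the 10 libraries were compared by the mean absolute difference in log2 CPM after centring each gene on its wild-type mean. Within the family the smallest distances were those of Fzd4 and Fzd6 (0.12), Fzd3 and Fzd4 (0.14), Fzd1 and Fzd3 (0.15), Fzd3 and Fzd6 (0.15) and Fzd7 and Fzd10 (0.16). Fzd5 was nearest to Fzd8 (0.53), and its distances to the other members ran from 0.66 (Fzd2) to 1.43 (Fzd10). Fzd2 was 0.49 from Fzd1 and 0.83 from Fzd7. Among 9978 other protein-coding genes of at least 10 CPM, the nearest to Fzd8 were Shisa2 (0.07) and Lima1 (0.08). Shisa2 stood at 306 ± 25.5 CPM in knockout and 167 ± 16.1 CPM in wild type. The nearest to Fzd7 were Plekhg1 (0.11) and Lmo2 (0.12), and to Fzd9 Masp1 (0.11) and Bhlhe40 (0.12). For Fzd10 they were Slc16a10 and Tmem132c (0.19 each), for Fzd1 Tenm4 (0.07) and Rnf217 (0.08), for Fzd2 Cntfr and Lmtk2 (0.05 each), and for Fzd3 Itsn2 (0.02) and Efna4 (0.04). Fzd5 had no close match among these genes, its nearest being Sall3 (0.26) and Gfra1 (0.28). Its own mean was 7.27 CPM in knockout and 2.25 CPM in wild type, so genes as scarce as Fzd5 were not compared. Like Fzd5, both were lowest of the knockout group in replicate 5. Sall3 was at 34.7 CPM there against 57.7 to 65.7 CPM in the other knockout libraries, and Gfra1 at 29.8 against 48.0 to 63.8 CPM. Both were picked for a profile near that of Fzd5 in these libraries, replicate 5 included, so the match is no separate support. Likeness of profiles mostly reflects the size of the genotype difference and rests on the same 10 libraries for all genes.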

How the data were processed

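Raw read counts per Ensembl gene were available for 10 libraries, 5 per genotype. The submitters' processing notes name 2 tools for making them, featureCounts 1.6.3-p1 and, for alignment, STAR 2.7.8a. They name a rat build (rn6) beside GRCm39. The annotation release and the strand setting are not given in the sources used here. Deposited counts are whole numbers, not normalized. Symbols, exon lengths and biotypes came from GENCODE M21 (GRCm38) by gene identifier (52073 of 56748 identifiers had a symbol), so lengths are approximate for the authors' build. Low-count genes were removed by filterByExpr of edgeR 4.0.16 (minimum count 10) in R 4.3.3, and libraries were scaled by TMM. Genotypes were compared with its two-sided quasi-likelihood F test with robust estimation, Benjamini-Hochberg adjusted over all 18163 genes tested. CPM used TMM-scaled totals. Standard errors came from the F statistic. Profiles used log2(CPM + 0.5). Named genes were the 10 members, Emx2, up to 3 called genes with the smallest p per list and the 2 nearest profiles per called member. The members and lists were chosen with earlier results of these data known. On counts simulated for 18163 genes of this comparison, of which 17868 passed the filter (those left out count as not called below), 30 of 50 genes changed 1.5-fold, 41 of 50 changed 2-fold, 45 of 50 changed 4-fold and 46 of 50 changed 8-fold were recovered, and 9 of 17963 unchanged genes were called. The simulation changed a far smaller share of genes than the 22.2% called here, so its rates need not hold for the real fit. Alternatives included DESeq2 1.42.0, limma 3.58.1 (voom), other scalings and filters, blocks, the summed level of Y-linked genes as a covariate, subsets and each library left out. A fit with no robust estimation was added after the data were seen.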

Additional observations from a re-analysis of the deposited data

Results flagged for a closer look

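In 4 of 62 groups of 5 libraries (31 genes, 2 genotypes), 1 library stood apart from the other 4 by its gap to the nearest divided by the range of the group; chance gives about 1 in 20. For Fzd1, knockout replicate 5 was the highest of its group (ratio 0.743, 126 CPM against 96.4 CPM in the next). For Fzd10, wild-type replicate 1 was the highest (0.817, 30.3 CPM against 18.3 CPM). Among knockout libraries, replicate 1 exceeded the rest for the R-spondin genes Rspo1 (0.753, 27.2 CPM against 16.6 CPM) and Rspo3 (0.755, 41.9 CPM against 20.1 CPM).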

How the results depend on the processing

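Each of the 10 members kept its direction in all 25 alternatives (250 of 250 estimates), and 234 of the 250 kept their side of the threshold. Fzd8 and Fzd9 were called in all 25, with log2 fold changes of 0.72 to 1.0 and -1.01 to -0.72. The other changes of call are given with the genes, and all but 5 arose in fits of 4 or 5 libraries. The number of Frizzled members called was 8 (3 higher, 5 lower) with all libraries, 5 in code 241022 (3 higher, 2 lower), 5 in code 14922 (1 higher, 4 lower) and 3 in the small libraries (1 higher, 2 lower). It was 8 to 9 when each library was left out in turn (3 higher in every case, 5 to 6 lower). Over all genes 4039 were called (2345 higher, 1694 lower), against 530 (243, 287) in code 241022, 1710 (1007, 703) in code 14922, 626 (335, 291) in the small libraries and 2181 (1349, 832) at a threshold of 0.01. With 1 library left out they numbered 3072 to 3979 (1783 to 2303 higher, 1289 to 1759 lower). Upper-quartile scaling gave 1899 higher and 2245 lower and total counts alone 1786 and 2464. The genotype by code interaction called 282 genes, 917 with no filter, 88 with at least 1 CPM in 5 libraries and 167 to 239 with 1 library left out. With the title code as a replicate block 4023 genes were called and the same 8 members; with size class as a block 3731 genes and the same 8 were. Residual correlations between knockout and wild-type libraries were -0.30 to 0.089 for the 9 pairs of 1 code, all of which differ in size class, -0.196 to -0.14 for the 4 pairs that share neither, and -0.1 to 0.241 for the 12 pairs of 1 size class. The pairs of 1 code spanned the range of the pairs that share neither, and all pairs of 1 size class lay above that range. These pairs reuse the same libraries, and what lies behind the pattern was not tested. The codes were not taken as pairs. Of 500 estimates for the 20 named partner genes 73 lost their call and 0 changed direction. The list counts varied over the settings, fits of 4 or 5 libraries among them. Those that fell numbered 4 to 8 WNT ligands, 0 to 6 turnover and R-spondin genes and 1 to 8 feedback targets. Those that rose numbered 0 to 4 in the Dishevelled list and 0 to 2 among planar polarity partners. Depth limits Fzd5 most, with 23 to 282 reads per library. For the order of levels per length, 8 of 10 wild-type ranks were the same with the longest transcript and 10 with total counts.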
